A study of Mus musculus with 6 samples.

Results

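The mitochondrial ribosomal protein genes are nuclear genes whose products join ribosomal RNAs made inside mitochondria to form the mitochondrial ribosome. They were chosen by symbol: every gene whose symbol begins with Mrpl (large subunit) or Mrps (small subunit) followed by a number, with pseudogenes left out. The rule found 78 of the 26332 genes with values, 49 of the large and 29 of the small subunit. The test took in genes whose normalized count was 10 or more in 3 or more libraries, which 74 members were, 47 of the large and 27 of the small subunit, among 14584 genes in all.

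The mitochondrial ribosome translates the few proteins that mitochondrial DNA encodes, all of them parts of the respiratory chain and ATP synthase on which a beating heart depends. Its small subunit reads the messenger RNA and its large subunit joins amino acids. Some of its proteins have counterparts in bacterial ribosomes, and others are found in mitochondria only. Every one is imported from the cytoplasm, so its supply begins with transcription in the nucleus.

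The measurement was RNA in sorted nuclei of atrial cardiomyocytes from mice aged 8 to 12 weeks. Both atria of an animal were combined, and nuclei were sorted by PCM1, a centriolar satellite protein that gathers around cardiomyocyte nuclei. Each of the 6 libraries came from a separate animal, 3 labelled control and 3 labelled Prrx1(R1A)-/-, which carry on both chromosomes an allele called R1A in a series about a noncoding region regulating Prrx1. No treatment is named for either group, and RNA of the cytoplasm was not part of the measurement.

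Libraries held 10580961 to 14658584 reads, or 6465255 to 9807543 without ribosomal RNA. Control replicate 1 stood apart, with 46.5% of its reads in ribosomal RNA and a correlation of 0.890 to 0.908 with the other libraries, so results that rest on it are given with and without it. Prrx1 itself, a mesenchymal homeobox gene, had 415, 335 and 282 normalized counts in controls and 201, 194 and 183 in Prrx1(R1A)-/- libraries, without overlap. The limma fit gave it a log2 fold change of −0.82 ± 0.25 (SE) and an adjusted p of 0.270.

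No mitochondrial ribosomal protein gene passed the test between genotypes. At an adjusted p under 0.05 by limma, 0 of 74 members were called, beside 2 of all 14584 genes, or 0.0137%. At an unadjusted p under 0.05, Mrpl40 and Mrps28 were lower and Mrpl12 was higher in Prrx1(R1A)-/- nuclei. That is 2 of 74 lower and 1 of 74 higher, beside 5.25% of all genes lower and 6.67% higher. The edgeR quasi-likelihood test called 0 members. At an unadjusted p under 0.05 it had 3 members lower, beside 5.64% of all genes, and 1 higher, beside 6.38%. DESeq2 called 0 of 74 members, beside 1.67% of all 14584 genes. It gave no adjusted p to 15 of these members, Mrpl40 among them, which left 59, and none to 3117 of all genes. At an unadjusted p under 0.05 it had 5 members lower, beside 6.16%, and 1 higher, beside 6.74%.

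With all genes and libraries, the subunit medians lay on different sides of 0. The median log2 fold change of the 47 large subunit genes was −0.21, with 33 below 0 and 14 above. For the 27 small subunit genes it was 0.02, with 13 below 0 and 14 above. All genes tested had a median of −0.0036, with 7337 of 14584 below 0. The difference of the subunit medians was −0.23, and it turned to 0.085 when genes overlapping an exon of the other strand were left out (large −0.14, small −0.22). It was −0.036 without Prrx1(R1A)-/- replicate 1, −0.11 without control replicate 3 and −0.14 without control replicate 2. Within a library, the median log2 normalized count of the large subunit less that of the small was 0.073, 0.34 and 0.068 in controls and −0.11, 0.21 and 0.23 in Prrx1(R1A)-/- libraries, which overlap.

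**Figure D1:**
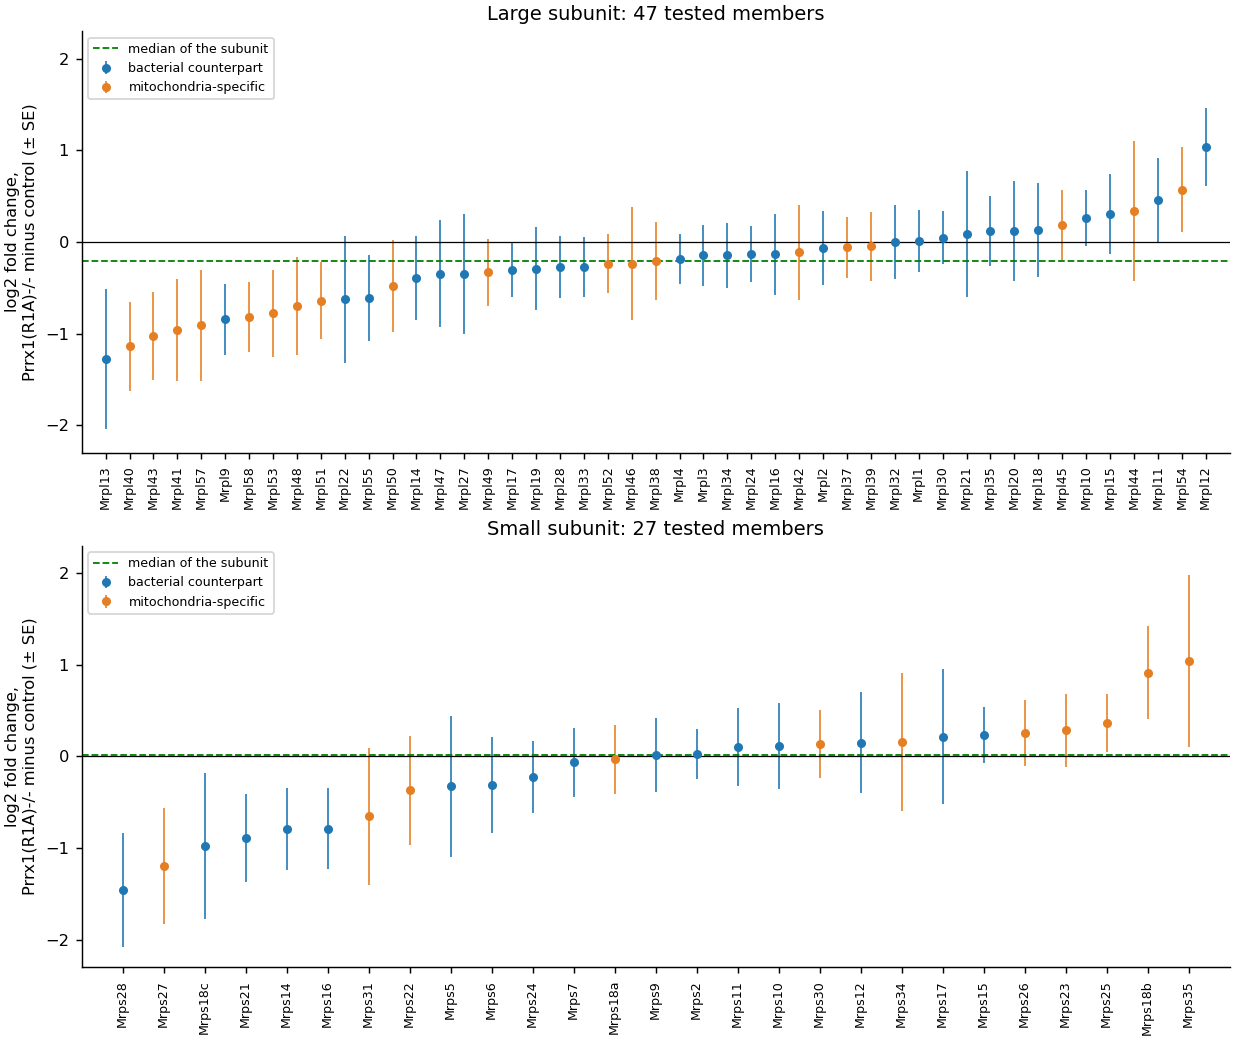
Log2 fold change of each tested member, Prrx1(R1A)-/- minus control, with its standard error, for the 47 large subunit genes (upper panel) and the 27 small subunit genes (lower panel), 3 libraries per genotype. Colours separate proteins with a bacterial counterpart from proteins found in mitochondria only; the dashed medians lie at −0.21 and 0.02.

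The stretch of DNA before the start of a gene is where nuclear respiratory factor 1 (NRF1), ETS factors such as GABPA, and YY1 are known to bind at many genes for mitochondrial proteins. RefSeq promoters of GRCm38.p6, each 250 bases before to 50 bases after a start, matched 69 of the 78 members, with 75 promoters. The ETS letters CCGGAAG, read on both strands, occurred in 34.7% of the member promoters, in 15.7% of the promoters of all genes tested and in 8.86% of all 32851 promoters. The NRF1 letters TGCGCA occurred in 29.3%, 12.5% and 7.76% of the same groups. The YY1 letters AAGATGGC occurred in 16.0%, 4.0% and 2.75%, and the SP1 letters GGGCGG in 52.0%, 59.6% and 35.7%. Where an ETS match runs into a YY1 match they can share the letters AAG. A match is a description of the letters and not a binding site.

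The next 8 sequences show these letters before 7 of the 10 members with the smallest p and between one pair of members, each read 5′ to 3′ on the strand of its gene, with the 4 letter patterns in capitals. The windows are the 100 bases before a RefSeq start of Mrpl9 (chr3:94443236-94443335, plus strand), Mrpl12 (chr11:120484537-120484636, plus), Mrpl43 (chr19:45006443-45006542, minus), Mrpl58 (chr11:115403652-115403751, plus), Mrps16 (chr14:20393635-20393734, minus, the one of its RefSeq starts used here), Mrps18b (chr17:35916441-35916540, minus) and Mrps27 (chr13:99344686-99344785, plus). The last is the 41 bases between the RefSeq starts of Mrpl46 and Mrps11 (chr7:78783090-78783130, shown on the plus strand). RefSeq starts differ from the gene bounds of GENCODE used elsewhere: GENCODE exons cover 11 bases of the Mrpl9 window, 24 of Mrpl12, 20 of Mrps27 and 12 of the last, and by GENCODE Mrpl46 and Mrps11 overlap. Windows lying mostly in GENCODE exons, those of Mrpl40 and Mrps21, are not shown, nor is Mrps28.
Mrpl9: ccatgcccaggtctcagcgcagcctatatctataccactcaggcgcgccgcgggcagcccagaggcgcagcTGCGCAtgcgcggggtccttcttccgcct
Mrpl12: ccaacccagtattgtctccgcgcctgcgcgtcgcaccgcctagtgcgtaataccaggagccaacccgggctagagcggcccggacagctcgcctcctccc
Mrpl43: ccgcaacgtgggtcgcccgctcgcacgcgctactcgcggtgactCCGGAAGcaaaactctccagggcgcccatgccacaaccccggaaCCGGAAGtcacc
Mrpl58: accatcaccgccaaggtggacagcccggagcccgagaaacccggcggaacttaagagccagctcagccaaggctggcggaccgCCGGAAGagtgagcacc
Mrps16: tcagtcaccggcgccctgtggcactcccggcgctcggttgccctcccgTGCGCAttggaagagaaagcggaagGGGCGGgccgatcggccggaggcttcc
Mrps18b: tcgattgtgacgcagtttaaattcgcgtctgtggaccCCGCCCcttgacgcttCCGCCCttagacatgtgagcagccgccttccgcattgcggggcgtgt
Mrps27: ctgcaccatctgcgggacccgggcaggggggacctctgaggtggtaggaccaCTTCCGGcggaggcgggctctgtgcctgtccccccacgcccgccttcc
Mrpl46-Mrps11: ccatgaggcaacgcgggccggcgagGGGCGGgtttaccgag
Mrpl43, Mrpl58 and Mrps27 hold the ETS letters (on the other strand in Mrps27), Mrpl9 the NRF1 letters, Mrps16 the NRF1 and SP1 letters, and Mrps18b and the Mrpl46-Mrps11 stretch the SP1 letters. The 100 bases of Mrpl12, the member with the smallest p, hold none of the 4 patterns.

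Members often began next to another gene. A protein-coding gene on the opposite strand started within 1000 bases of the start of 32 of 74 tested members (43.2%), against 2008 of 13379 tested protein-coding genes (15.0%). Mrpl46 and Mrps11 are a large and a small subunit gene that start from one stretch of chromosome 7. Mrps12, a decoding-site protein gene, begins beside Sars2, the mitochondrial seryl-tRNA synthetase gene, and Mrpl40 beside Hira, a histone chaperone gene. Mrps27 begins beside Ptcd2, a mitochondrial RNA processing gene, and the log2 fold changes were −1.20 and −0.82. They were −1.14 and 0.15 for Mrpl40 and Hira, and 0.15 and 0.33 for Mrps12 and Sars2. For Mrpl46 and Mrps11 they were −0.24 and 0.11, so the named pairs did not all share a direction. The libraries are not stated to keep strand, so reads on bases shared by opposite genes cannot be told apart.

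Per length of exon, member levels differed widely, and the medians of the subunits were close. The median mean level over the 6 libraries was 40.4 normalized counts per kb for the large subunit and 42.6 for the small, among tested genes. Levels ranged from 4.66 to 279 per kb in the large and from 1.95 to 162 in the small subunit. A member thus rested on a median of 70 reads per library in the large and 64 in the small subunit, with exons of 1398 and 1418 bases at the median, beside 3310.5 bases for all genes tested.

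Mrpl33, a small protein with a bacterial counterpart, had the highest level at 279 normalized counts per kb, from counts of 136, 175 and 123 in controls and 142, 142 and 82.9 in Prrx1(R1A)-/- libraries. Mrpl52, a large subunit protein found in mitochondria only, followed at 260.1 per kb, and its counts of 179, 101 and 139 in controls overlapped 95.5, 132 and 120.3. Mrps15, a small subunit protein with a bacterial counterpart, led its subunit at 162 per kb, with 182, 110.1 and 128 counts against 142, 162 and 183. The genotypes overlapped in all 3 genes. Mrpl30 had 134 per kb, Mrps21 93.8 and Mrps18a 93.4. Mrps18a is one of the related Mrps18 proteins and, despite its symbol, sits in the large subunit.

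**Figure D2:**
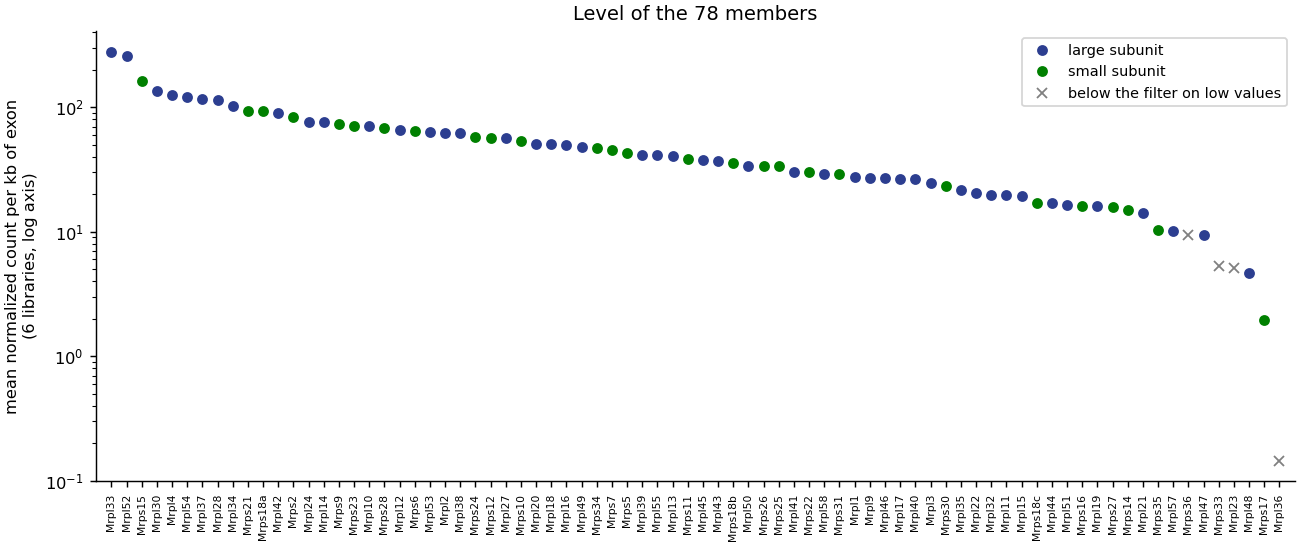
Mean normalized count per kb of exon over the 6 libraries for all 78 members, ranked on a log axis, with the large subunit in blue, the small in green and members below the filter as crosses. Mrpl33 leads at 279 per kb, genes of both subunits lie along the range, and Mrps17 is the lowest tested member at 1.95. The highest small subunit genes are Mrps15 at rank 3 and Mrps21 at rank 10.

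At the low end, Mrps17 had 13.8, 10.5 and 6.67 normalized counts in controls and 9.77, 7.20 and 22.2 in Prrx1(R1A)-/- libraries, a level of 1.95 per kb. Mrpl48 had 4.66, Mrpl47 9.37, Mrpl57 10.2, Mrps35 10.3 and Mrps14 15.0 per kb. The members below the filter were Mrpl23, Mrpl36, Mrps33 and Mrps36. Mrpl23, with a bacterial counterpart, lay between 1.20 and 13.0 normalized counts, and Mrps33 between 3.60 and 11.9. Mrps36, a protein also assigned to the oxoglutarate dehydrogenase complex, lay between 3.03 and 12.0. Mrpl36, the counterpart of a bacterial zinc-binding protein, had 1 read, in Prrx1(R1A)-/- replicate 3, and none in the other libraries, where a count of 0 allows up to 3 reads, or 2.22 to 3.77 normalized counts.

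In the large subunit, 33 of 47 genes had a fold change below 0 and 1, Mrpl40, was lower at an unadjusted p under 0.05. Mrpl40 (identifier 18100; chr16:18872018-18876862, minus strand), a protein with no bacterial counterpart, had 34.0, 40.4 and 71.2 normalized counts in controls and 22.8, 20.4 and 18.2 in Prrx1(R1A)-/- libraries. All 3 Prrx1(R1A)-/- libraries lay below all 3 controls, on 233 reads in all. In the limma fit the fold change on the log2 scale came to −1.14 ± 0.49 (SE; adjusted p = 0.390).

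Mrpl12 (identifier 56282; chr11:120484613-120489065, plus strand), the counterpart of the bacterial stalk protein and a described partner of mitochondrial RNA polymerase, went the other way. It had 85.6, 32.2 and 57.1 normalized counts in controls and 79.3, 127 and 139 in Prrx1(R1A)-/- libraries. Control replicate 1 lay above Prrx1(R1A)-/- replicate 1, so the genotypes overlapped. By limma the log2 fold change was 1.04 ± 0.43 (adjusted p = 0.374), 1.36 without control replicate 1 (adjusted p = 0.0537) and 0.67 without control replicate 2. With ribosomal RNA as a covariate it was 0.59 (adjusted p = 0.489 by limma).

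Mrpl58 (identifier 68572; chr11:115403752-115412674, plus strand), a peptidyl-tRNA hydrolase built into the large subunit that frees stalled ribosomes, had 122, 62.2 and 112 normalized counts in controls and 48.9, 52.8 and 58.6 in Prrx1(R1A)-/- libraries. The genotypes did not overlap, though control replicate 2 came close to the Prrx1(R1A)-/- range. In the limma fit the fold change on the log2 scale came to −0.82 ± 0.38 (adjusted p = 0.427).

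Mrpl43, which shares bases with the mitochondrial DNA helicase gene Twnk on the other strand, had 44.0, 48.7 and 123 normalized counts in controls and 30.4, 32.4 and 30.3 in Prrx1(R1A)-/- libraries. The genotypes did not overlap, and control replicate 3 was far above the other libraries. The log2 fold change of −1.03 ± 0.48 (adjusted p = 0.429 by limma) was −0.56 without that library. Mrpl9, with a bacterial counterpart, had 115, 85.4 and 69.7 normalized counts against 41.3, 68.4 and 40.4. The genotypes were narrowly apart, with a log2 fold change of −0.85 ± 0.39 (adjusted p = 0.425 by limma).

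Mrpl41 and Mrpl48 were the other large subunit genes whose genotypes did not overlap, which makes 6 of 47, all lower in Prrx1(R1A)-/- nuclei. Mrpl41 had 21.4, 44.2 and 29.7 normalized counts against 18.5, 16.8 and 11.1, and Mrpl48 had 25.2, 24.0 and 32.6 against 18.5, 12.0 and 19.2. Both are low genes, with 158 and 142 reads in all. Mrpl13, named after its values were seen as the large subunit gene with the lowest fold change, had 18.9, 69.7 and 124 against 51.0, 25.2 and 8.09 normalized counts, overlapping, with a log2 fold change of −1.27 ± 0.76. It was −2.02 without control replicate 1, −0.70 without control replicate 3, −0.60 without Prrx1(R1A)-/- replicate 3 and −0.41 with the ribosomal RNA covariate.

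Among large subunit genes for proteins found in mitochondria only, 16 of 19 tested lay below 0, with a median log2 fold change of −0.33, against 17 of 28 genes with a bacterial counterpart, with a median of −0.14. In the small subunit the same split gave 4 of 11 below 0 (median 0.15) and 9 of 16 (median −0.14). So the order of the groups was not the same in both subunits. The split was made with earlier results of these data known, and these are counts without a test.

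In the small subunit, Mrps28 was lower at an unadjusted p under 0.05 and no gene was higher. Mrps28 (identifier 66230; chr3:8802146-8923918, minus strand), named as the counterpart of a bacterial messenger-binding protein, had 112, 54.7 and 57.1 normalized counts in controls and 36.9, 8.40 and 48.5 in Prrx1(R1A)-/- libraries. The genotypes did not overlap, and Prrx1(R1A)-/- replicate 2 was far below the others. In the limma fit the fold change on the log2 scale came to −1.46 ± 0.62 (adjusted p = 0.390), and −0.72 without that library.

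Mrps16, a protein whose loss in humans impairs mitochondrial translation, had 45.3, 47.2 and 64.5 normalized counts in controls and 33.7, 21.6 and 35.4 in Prrx1(R1A)-/- libraries, without overlap. By limma the log2 fold change was −0.79 ± 0.44 (adjusted p = 0.503). Mrps21, with a bacterial counterpart, had 46.6, 50.2 and 82.3 against 42.3, 18.0 and 37.4, again without overlap, and a log2 fold change of −0.89 ± 0.48 (adjusted p = 0.483 by limma), which was −0.53 without Prrx1(R1A)-/- replicate 2. These are the 3 small subunit genes, with Mrps28, whose Prrx1(R1A)-/- libraries all lay below all controls.

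Mrps27, a pentatricopeptide repeat protein that binds RNA, had 30.2, 39.7 and 47.5 normalized counts in controls and 32.6, 20.4 and 6.06 in Prrx1(R1A)-/- libraries. Prrx1(R1A)-/- replicate 1 lay inside the control range, and the log2 fold change of −1.20 ± 0.63 (adjusted p = 0.474 by limma) was −0.56 without replicate 3. Mrps18b, another of the related Mrps18 proteins, had 18.9, 29.2 and 27.4 normalized counts against 31.5, 84.0 and 40.4. It was the 1 member higher in all 3 Prrx1(R1A)-/- libraries than in all controls, with a log2 fold change of 0.91 ± 0.51 (adjusted p = 0.499 by limma) that was 0.51 without replicate 2 of that genotype.

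Over both subunits the genotypes did not overlap in 9 members that were lower and 1 that was higher. Over all genes tested that happened in 8.36% lower and 8.89% higher, against 12.2% and 1.35% of the members. These shares are a description with no test.

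**Figure D3:**
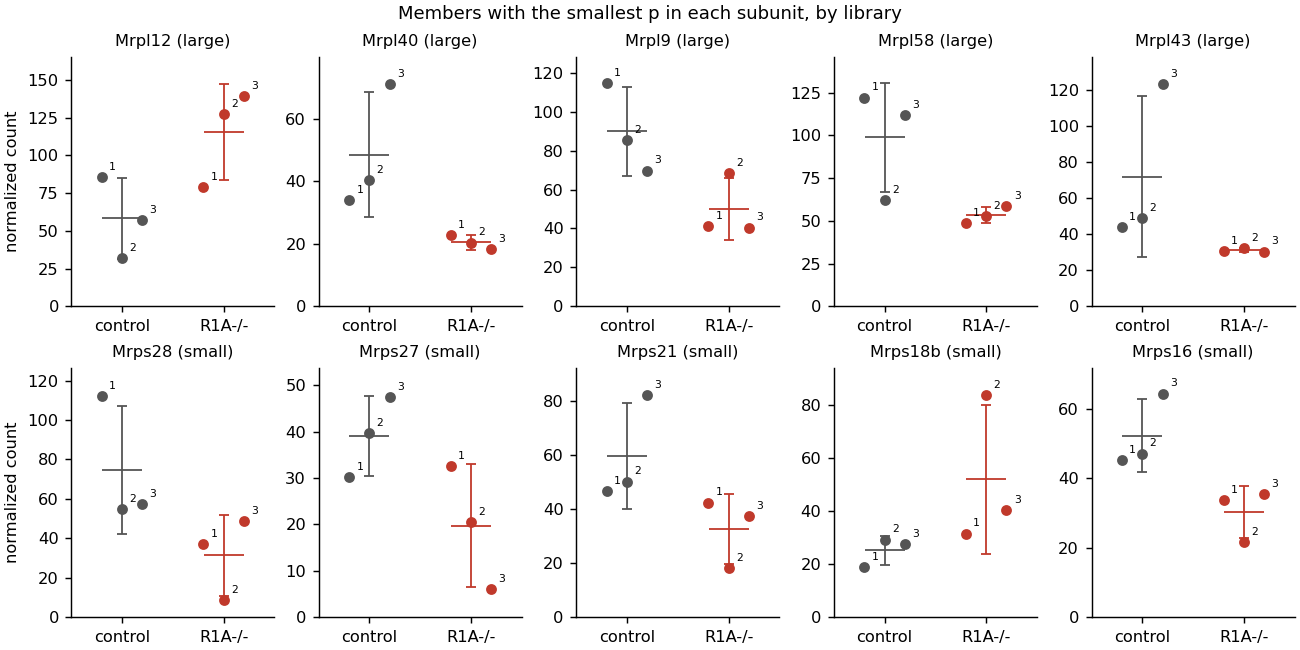
Normalized counts in each library (numbered by replicate) of the 5 members with the smallest p in the large subunit (upper row) and the small subunit (lower row), with the mean and SD of 3 libraries per genotype. Mrpl40 at 18.2 to 22.8 and Mrps16 at 21.6 to 35.4 in Prrx1(R1A)-/- libraries lie below all controls, and Mrpl12 and Mrps27 overlap.

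Spread between animals exceeded counting error at the median of each subunit. The median coefficient of variation among controls was 36.4% in the large and 33.0% in the small subunit, and among Prrx1(R1A)-/- libraries 27.0% and 38.7%. Counting error alone would give 12.1% and 13.5% at the median. The median standard error of a log2 fold change was 0.44 and 0.47.

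Control replicate 1 was the lowest of the controls in 30 of 47 large subunit genes (63.8%) and 15 of 27 small subunit genes (55.6%), against 42.1% of all genes tested. Without it, 40 of 47 large subunit genes lay below 0 with a median of −0.44, and 16 of 26 small subunit genes with a median of −0.25. The large median was −0.09 without control replicate 3 and −0.14 without Prrx1(R1A)-/- replicate 1, so 3 of the 6 libraries each move it by more than 1.5 times. Without control replicate 1, limma called 0 members at an adjusted p under 0.05, beside 9.16% of all genes. At an unadjusted p under 0.05 it then had 8 members lower, beside 11.2% of all genes, and 3 members higher, beside 14.6%.

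Single genes of the small subunit departed most in that library. Mrps5, a decoding-region protein singled out after its values were seen, had 702 normalized counts (558 reads) in control replicate 1, against 48.7 and 69.0 in the other controls and 138, 86.4 and 101 in Prrx1(R1A)-/- libraries. Zfp661, the gene that starts beside it on the other strand, had 31.5, 37.4 and 39.3 in controls. The log2 fold change of Mrps5 by limma was −0.33 with all libraries and 0.87 without control replicate 1. With all libraries, edgeR gave −1.30, DESeq2 −1.33 and limma with ribosomal RNA as a covariate −1.51 (adjusted p = 0.0811).

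Mrps35 was as far out in the other direction, with 2.52 normalized counts in control replicate 1, 50.2 and 58.6 in the other controls, and 76.0, 42.0 and 27.3 in Prrx1(R1A)-/- libraries. By limma the log2 fold change was 1.04 ± 0.93 (adjusted p = 0.682) and turned to −0.28 without control replicate 1. It was 0.34 by edgeR and 0.37 by DESeq2. With ribosomal RNA as a covariate it was 2.43 (adjusted p = 0.0428 by limma), in a fit that called 436 of all 14584 genes. Mrps35 was the 1 member called under any setting tried.

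**Figure D4:**
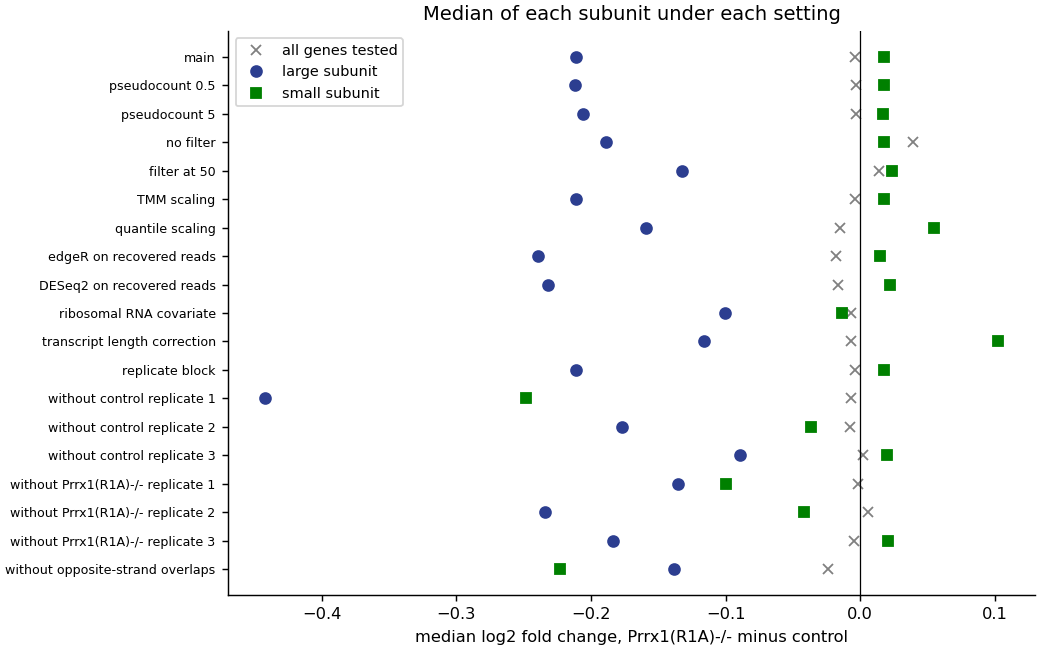
Median log2 fold change of the large subunit (circles), the small subunit (squares) and all genes tested (crosses) under each setting. The large median stays below 0 in all of them, from −0.44 without control replicate 1 to −0.09 without control replicate 3, and the small median lies on either side of 0.

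Summed over the members of each subunit separately, the levels of the genotypes overlapped on the deposited scale. The large subunit genes summed to 3212, 3917 and 4329 normalized counts in controls and 3236, 3475 and 3308 in Prrx1(R1A)-/- libraries. The small subunit genes summed to 2461, 1887 and 2116 against 2092, 2043 and 1805. Control replicate 1 had the lowest large and the highest small sum, the latter with Mrps5 in it. With both subunits added together, each Prrx1(R1A)-/- library lay below each control, a description with no test. That order rested on Mrps5, which gave 702 normalized counts in control replicate 1. With Mrps5 left out, that control no longer lay above the Prrx1(R1A)-/- libraries.

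The ratio of large to small subunit level, each summed per kb of exon, was 1.88, 2.28 and 2.09 in controls and 1.79, 2.18 and 2.10 in Prrx1(R1A)-/- libraries. The means were 2.08 ± 0.20 (SD, n = 3) and 2.03 ± 0.20, a difference smaller than the spread. With Mrps5 left out they were 2.18 ± 0.11 and 2.06 ± 0.20.

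As a share of all reads outside ribosomal RNA, members took less in each Prrx1(R1A)-/- library than in each control. The share was 0.0697%, 0.0832% and 0.0886% in controls and 0.0563%, 0.0540% and 0.0573% in Prrx1(R1A)-/- libraries. The means were 0.0805% ± 0.0097 (SD, n = 3) and 0.0559% ± 0.0017, a description with no test. In control replicate 1, the lowest control, 558 of the 4509 member reads came from Mrps5. With Mrps5 left out the genotypes stayed apart, by a smaller gap. The summed level of 12 cardiomyocyte markers was 302571 to 584488 normalized counts in controls and 810287 to 1510080 in Prrx1(R1A)-/- libraries. Most of each sum was Ttn, with 217140 to 443906 in controls and 581431 to 1235390 in Prrx1(R1A)-/- libraries. The part of those genes in the lower share was not tested.

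**Figure D5:**
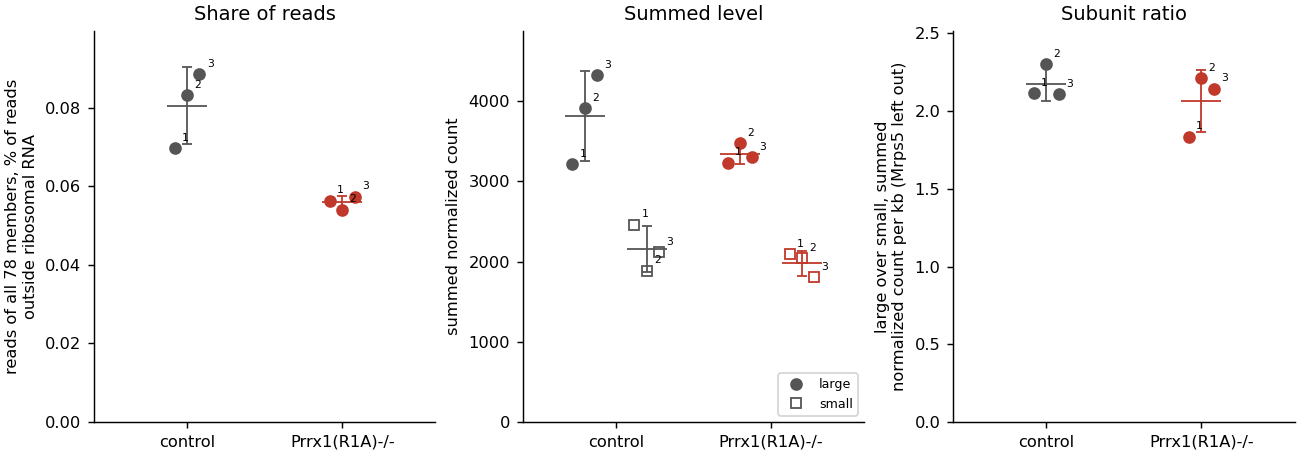
Sums over members in each library (numbered by replicate), with mean and SD of 3 libraries per genotype: reads of all 78 members as a percent of reads outside ribosomal RNA (left), summed normalized counts by subunit (middle), and the ratio of large to small subunit level per kb without Mrps5 (right). The left panel separates 0.0697% to 0.0886% in controls from 0.0540% to 0.0573%, while the other panels overlap.

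Markers of several cell types moved with genotype beside these genes. Of 12 cardiomyocyte markers 11 had fold changes above 0 (median 1.04). All 12 fibroblast markers (median −0.70; summed level 49842 to 82639 in controls, 35672 to 40010 in Prrx1(R1A)-/-) and all 12 immune markers (median −0.56; 14554 to 22392 against 11371 to 14302) lay below 0. The lowest adjusted p in any of these lists was 0.0940 by limma, so none was called.

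Medians were −0.02 for 11 endothelial, 0.10 for 10 smooth muscle and pericyte, −0.35 for 4 adipocyte, 0.27 for 6 Schwann cell and neuron, −0.17 for 8 epicardial and 0.45 for 3 blood cell markers tested. Hba-a1, which defines red cells, was at 0 in every library. The 3 blood cell markers tested were not: over the libraries Hbb-bs had 5.03 to 62.4, Alas2 85.6 to 319 and Pf4 140 to 253 normalized counts. In nuclei pooled from a tissue, fewer cells of a type and less RNA per cell cannot be told apart, and the part of other cell types in the members' values was not tested.

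By limma with all libraries and genotype alone, no other gene of mitochondrial translation was called either, in lists chosen with earlier results known. Of 6 tested ribosome proteins outside the symbol rule, 3 lay below 0 (median −0.04). Chchd1, a small subunit protein, had 65.4, 94.4 and 71.9 normalized counts against 55.4, 42.0 and 33.4, without overlap (log2 fold change −0.82 ± 0.39). Dap3, a GTP-binding small subunit protein, had 190.0, 184 and 256 against 278, 287 and 322, also without overlap but in the other direction (0.50 ± 0.25). Their adjusted p were 0.435 and 0.451 by limma.

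Of 12 mitochondrial translation factors 7 lay below 0 (median −0.06). The initiation factor gene Mtif2 had a log2 fold change of 0.55 ± 0.37 and the elongation factor gene Gfm1 −0.43 ± 0.30, which were 0.17 and −0.68 without control replicate 1. Of 27 genes for ribosome assembly and ribosomal RNA modification 11 lay below 0 (median 0.12). The pseudouridine synthase gene Rpusd4 had 111, 56.2 and 46.7 normalized counts against 20.6, 18.0 and 20.2, without overlap, a log2 fold change of −1.71 ± 0.48 (adjusted p = 0.228 by limma). DESeq2 gave Rpusd4 an adjusted p of 0.0269, and limma with the ribosomal RNA covariate 0.0447. Of all genes, DESeq2 called 1.67%, and limma with that covariate called 436 of 14584. Wbscr16, a large subunit assembly factor gene also called Rcc1l, had 55.4, 91.4 and 96.4 against 178, 215 and 126, a log2 fold change of 1.09 ± 0.35 (adjusted p = 0.284 by limma, and 0.0417 with that covariate). These assembly genes had fold changes of both signs.

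Of 22 mitochondrial aminoacyl-tRNA synthetase genes 11 lay below 0 (median −0.02), with Rars2 (arginine) at −1.03 ± 0.40 and Yars2 (tyrosine) at −0.99 ± 0.48. Of 18 genes of mitochondrial transcription and RNA processing 14 lay below 0 (median −0.47). Trmt10c, a subunit of mitochondrial RNase P, had a log2 fold change of −1.50 ± 0.55 (adjusted p = 0.334 by limma). It was −0.85 without Prrx1(R1A)-/- replicate 1. Polrmt, the mitochondrial RNA polymerase, had 0.69 ± 0.27 (adjusted p = 0.359 by limma). The adjusted p of Polrmt by limma was 0.0415 without control replicate 1, where 9.16% of all genes were called. In 10 regulators of mitochondrial gene programmes, 4 lay below 0 (median 0.25).

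The regulators with the smallest p were the coactivator genes Ppargc1b and Pprc1. Ppargc1b had 203, 195 and 220.2 normalized counts in controls and 558, 566 and 357 in Prrx1(R1A)-/- libraries, without overlap, a log2 fold change of 1.23 ± 0.26 (adjusted p = 0.128 by limma). DESeq2 gave it an adjusted p of 0.00259, and limma gave 0.0157 with the ribosomal RNA covariate and 0.0114 without control replicate 1. Of all genes, those fits called 1.67%, 436 of 14584 and 9.16%, in that order. Pprc1 had a log2 fold change of 0.75 ± 0.24 (adjusted p = 0.284 by limma). Pprc1 shares bases with an opposite-strand gene, Ldb1.

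Of 86 cytoplasmic ribosomal protein genes, which serve the other ribosome of the cell, 74 were tested, with 53 below 0 and a median log2 fold change of −0.27, and 0 were called by limma, with 5 lower and 0 higher at an unadjusted p under 0.05. The genotypes did not overlap in 13 of the 74 (17.6%), all lower in Prrx1(R1A)-/- nuclei, beside 8.36% of all genes lower and 8.89% higher.

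On the chromosome of Prrx1, Mrps14, a protein of the decoding subunit, lay closest, 3.04 Mb away (chr1:160195215-160202170, plus strand). It had 45.3, 74.1 and 63.8 normalized counts in controls and 23.9, 32.4 and 51.5 in Prrx1(R1A)-/- libraries, overlapping, with a log2 fold change of −0.79 ± 0.45 (adjusted p = 0.507 by limma).

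The authors' deposited table of comparisons lists 1900 genes, 5 of them members. In the authors' deposited table the log2 fold changes were −0.84 for Mrpl43, 0.75 for Mrpl12, −0.83 for Mrpl40, −0.79 for Mrps28 and −0.68 for Mrpl58. Their adjusted p in the authors' deposited table, where DESeq2 is the tool named in the submitters' processing notes, were 0.280, 0.302, 0.300, 0.335 and 0.345, so none passed there either. The deposited fold changes had the signs of the limma fit and were smaller in size. The Wald scores beside them had the opposite sign in all 5, such as 2.28 for Mrpl43 and −2.20 for Mrpl12.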

How the data were processed

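Nuclear RNA of sorted atrial nuclei from 6 mice was sequenced after amplification with the Ovation RNA-seq System V2, per the labels' protocols. The submitters' processing notes name STAR, DESeq2 and the build mm10; for the read counter and the annotation, the sources used here give no name. The deposited signal per gene and library is a normalized count. Its values are whole multiples of 1 step per library (0.742 to 1.26; tolerance 0.01 reads, 1 exception in 157992 values), from which reads were recovered for edgeR 4.0.16 and DESeq2 1.42.0. The authors' deposited comparison table gives log2 fold changes, a Wald score, p-values and −log10 adjusted p-values.

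Fold changes came from limma 3.58.1 (limma-trend, R 4.3.3, two-sided) on log2(normalized count + 1), with genotype alone, for genes at 10 or more in at least 3 libraries, and Benjamini-Hochberg adjustment over all 14584. Log2(value + 1) understates changes of low genes. The 3-read limit of a 0 covers counting error only. Positions and exon lengths are from GENCODE on GRCm38 (the build of mm10), promoters from RefSeq, and figures from matplotlib 3.10.9.

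Named were, in each subunit, the 5 members with the smallest p, the 3 highest and 3 lowest per kb, all members below the filter, and the 2 smallest p of each pathway list; 3 listed symbols were matched through older names. The members and lists were chosen with earlier results of these data known. The fit was tested on simulated counts.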

Additional observations from a re-analysis of the deposited data

How the results depend on the processing

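The large subunit median stayed below 0 under all settings tried (−0.44 to −0.09 on leaving out 1 library). With the ribosomal RNA covariate it was −0.10, with 26 of 47 genes below 0, beside 7385 of all 14584, and the small median was −0.01. With a correction for transcript length the large median was −0.12, with 30 of 47 below 0, and the small median 0.10. The small median ranged from −0.25 to 0.021 on leaving out 1 library and was −0.22 without genes overlapping an exon of the other strand, where the difference of the medians was 0.085 and 19 of 28 large genes lay below 0. That difference ranged from −0.20 to −0.036 on leaving out 1 library. With a filter at 50, 8 of 18 small genes lay below 0. Assigning Mrps30 and Mrps18a to the large subunit left the medians at −0.19 and 0.02.

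Members called were 0 except for 1 (Mrps35) with the ribosomal RNA covariate. All genes called were 0 with quantile scaling, edgeR, the replicate block or without opposite-strand overlaps, 244 with DESeq2, 436 with the covariate, and 0 to 1312 on leaving out 1 library. The deviations of same-numbered libraries from their genotype means correlated at −0.11, −0.02 and −0.09. That showed no pairing by number, but with 3 libraries per genotype it cannot exclude one. With the replicate block the medians were −0.21 and 0.02.

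The members named for their p, level or single values included 7 that turned sign under some setting. Mrps35 and Mrps5 have their fold changes above. For the others the log2 fold change by limma with all libraries was −0.03 (Mrps18a), 0.23 (Mrps15), 0.22 (Mrps17), 0.04 (Mrpl30) and −0.35 (Mrpl47). Mrps18a was 0.019 with quantile scaling, 0.062 with edgeR, 0.065 with DESeq2, 0.058 with the covariate, 0.10 with length correction, and −0.37 to 0.28 on leaving out 1 library. The covariate gave Mrps15 −0.014 and Mrps17 −0.049. On leaving out 1 library, Mrpl30 ranged from −0.051 to 0.16, Mrpl47 from −0.77 to 0.025, Mrps17 from −0.039 to 0.53, Mrps35 from −0.28 to 1.76 and Mrps5 from −1.05 to 0.87. The cause was not tested. Of the 78 members, 4 fell below the filter, and the part of depth in that was not tested.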
